A study of Homo sapiens with 16 samples.

Results

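Glutamine withdrawal was examined in DLD1 cells that carry mutant PIK3CA, in which 2 arrays of cells grown without glutamine were compared with 2 arrays of cells grown with it. These 4 arrays were chosen by their sample titles from the 16 of the study, which hold 8 groups of 2 biological replicates. DLD1 and HCT116 are established human colorectal carcinoma lines, and in each line an allele of PIK3CA was removed to make an isogenic pair. PIK3CA encodes p110-alpha, a catalytic subunit of phosphoinositide 3-kinase. In DLD1 PIK3CA Mut cells the wild-type allele was knocked out, and in DLD1 PIK3CA WT cells the mutant allele, so both derivatives were edited and neither is the parental line. HCT116 cells came as the same pair, PIK3CA Mut and PIK3CA WT. All groups were cultured in DMEM with 10% dialyzed fetal bovine serum, from which small molecules such as free amino acids have largely been removed, and glutamine was present or absent for 24 h. The labels do not say how many clones stand behind a derivative or whether replicates came from separate cultures. The p-values thus measure the spread between replicate arrays within the 8 groups, and derivative and clone cannot be told apart.

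Glutamine gives cells nitrogen for nucleotides, asparagine and hexosamines, and its carbon enters the tricarboxylic acid cycle through glutamate. Cells that run short of an amino acid sense uncharged transfer RNA through the kinase GCN2, slow protein synthesis and translate the transcription factor ATF4, while the growth kinase complex mTORC1 loses activity. In intestinal epithelium the Wnt pathway keeps stem and progenitor cells in their state, the transcriptional coactivator YAP with its partners of the TEAD family drives growth and repair, and both are known to be active in many colorectal carcinomas.

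The deposited values are array intensities on a linear scale, and all levels below are such intensities. The median over all probe sets was near 3.70 on the first array with glutamine, so that a level of a few units is close to that of most of the array, and no detection call was available. Probe sets respond differently, so levels are compared between arrays and never between genes. The replicate arrays of DLD1 Mut cells correlated at r = 0.992 with glutamine and 0.991 without it across genes, which are not independent replicates, with a median difference of 0.153 and 0.150 on the log2 scale. Of 15 markers of colon epithelium on the array all 15 were tested. EPCAM, an epithelial adhesion molecule, averaged 2105 with glutamine and 2054 without it, while 4 of the 15, VIL1, CDX1, LGALS4 and CDHR1, stayed under a mean of 10 in each group. The summed level of the list was 6916 to 7413 with glutamine and 6483 to 6606 without. Markers of fibroblasts, leukocytes and endothelium, 24 genes in all, had 2 tested members each, and summed levels of 24.8 to 26.4, 51.6 to 66.2 and 26.5 to 27.0 with glutamine against 24.9 to 25.5, 44.5 to 45.7 and 22.3 to 22.9 without. The brightest of them was CD68, a lysosomal glycoprotein, with a mean of 28.8 and 24.2, and 1 member of the endothelial list fell, a call lost when any 1 of the 4 arrays was left out. The part of such cells in the results was not tested. In such bulk RNA, fewer cells of a type and less RNA per cell cannot be told apart.

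Withdrawal changed many genes by small amounts, in nearly equal numbers up and down. Of 15676 tested genes 5268 passed limma's test at a Benjamini-Hochberg adjusted p under 0.05, which is 33.6%, and 2636 of them rose (16.8%) and 2632 fell (16.8%). At least a 2-fold change was reached by 636 of the rises and 645 of the falls, and at least a 4-fold change by 60 and 53. In all 5268 called genes both arrays without glutamine lay on the same side of both arrays with it, a separation that 31.5% of all tested genes showed upward and 33.5% downward. The median change over all tested genes was -0.03 on the log2 scale. Leaving out any 1 of the 4 arrays left 3996 to 4105 calls. With the 4 arrays fitted alone 4041 genes were called, and 3779 of the 5268 calls were kept in the same direction. Changes are given below as log2 differences, without minus with glutamine, ± limma's SE, and "rose" and "fell" stand for calls of this test. Each change compares 2 with 2 arrays, while its SE and p-value use the spread within all 8 groups of the 16 arrays. Counts for the lists below are to be read beside the shares of 16.8% each way.

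The largest rise was that of NIBAN1, a stress-induced regulator of translation, whose level was 11.1 and 17.0 with glutamine and 167 and 184 without it. This is a 12.8-fold rise (log2 change 3.68 ± 0.23, adjusted p = 2.39e-06). PPP1R15A, which directs a phosphatase to the translation factor eIF2-alpha, went from 102 and 96.9 to 903 and 895, and the replicates lay within a few percent of each other (3.18 ± 0.11, adjusted p = 2.21e-07). Both growth arrest genes GADD45A and GADD45B were among the 20 largest rises. GADD45A rose from 328 and 356 to 2038 and 2011 (2.57 ± 0.09) and GADD45B from 135 and 130.5 to 734 and 831 (2.56 ± 0.12). Of genes with a role in squamous or barrier epithelium, SCEL, the cornified-envelope protein sciellin, rose from 38.3 and 34.7 to 278 and 301 (2.99 ± 0.16, adjusted p = 1.3e-06). TMPRSS11F, a membrane-bound serine protease, was at 2.29 and 2.51 with glutamine, under the array median, and at 19.2 and 19.4 without it (3.01 ± 0.14, adjusted p = 9.16e-07). LAMP3, a lysosomal membrane protein, rose from 24.4 and 33.6 to 216 and 209 (2.89 ± 0.16), and SLC16A4, a monocarboxylate transporter family member, from 27.8 and 28.4 to 176 and 205 (2.75 ± 0.31). CMKLR2, a receptor for the chemoattractant chemerin, rose from 15.2 and 9.92 to 118 and 111 (3.22 ± 0.29). RASSF9, a Ras-association domain protein, rose from 12.3 and 10.9 to 76.9 and 83.6 (2.79 ± 0.14), whereas its relative RASSF10 was among the largest falls. CYP1A1, the cytochrome P450 known as the main target of the aryl hydrocarbon receptor, was at 15.9 and 9.72 with glutamine and 72.6 and 73.2 without it (2.55 ± 0.20). ZNF430, ZXDA and LRRC37A3 were also among the 20 largest rises but belong to families with near-identical copies, and their values are uncertain. The level of ZNF430 was 12.8 and 2.68 with glutamine, an unusually wide gap between replicates, and 69.2 and 46.2 without (3.27 ± 0.58, adjusted p = 0.00139).

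The largest fall was that of SLAMF6, an immune cell receptor of the SLAM family. Its level was 78.2 and 87.0 with glutamine and 2.60 and 6.39 without it (log2 change -4.34 ± 0.30, adjusted p = 4.43e-06), and the arrays without glutamine lay on either side of the array median. CEMIP, a hyaluronan-binding protein linked to hyaluronan breakdown, fell from 187 and 199 to 20.9 and 22.5 (-3.16 ± 0.19, adjusted p = 2.39e-06). MLKL, the executor of necroptosis, went from 122 and 112 to 13.7 and 15.5 (-3.00 ± 0.28). IL33, an epithelial alarmin cytokine, fell from 105 and 109 to 9.63 and 19.8 (-2.96 ± 0.51, adjusted p = 0.00114), with the replicates without glutamine further apart than those with it. IL17RB, a receptor for interleukin-25, fell from 179.7 and 186 to 22.6 and 26.3 (-2.91 ± 0.18). MYB, a transcription factor of progenitor cells in colon crypts and blood, was 48.9 and 51.1 and became 7.52 and 6.86 (-2.80 ± 0.25). CFTR, the chloride channel of secretory epithelia, fell from 250.5 and 318 to 58.8 and 47.1 (-2.42 ± 0.19, adjusted p = 6.65e-06). LRP8, an apolipoprotein E receptor, fell from 173 and 195 to 37.3 and 23.9 (-2.62 ± 0.18), and the sterol regulator INSIG1 from 347 and 396 to 55.4 and 58.2 (-2.71 ± 0.17). CORO1A, an actin-binding coronin of blood cells, fell from 201 and 178 to 27.5 and 30.0 (-2.72 ± 0.25). RASSF10 dropped from 21.1 and 32.1 to 2.76 and 2.80 (-3.23 ± 0.19), and the level without glutamine was below the array median. The size of such changes depends on how dim values are treated. With an offset of 16 added before log2 the changes were -2.27 for SLAMF6, -1.17 for RASSF10 and 0.94 for TMPRSS11F, and in 27 of the 147 called genes named here the change was over 1.5 times smaller.

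**Figure D1:**
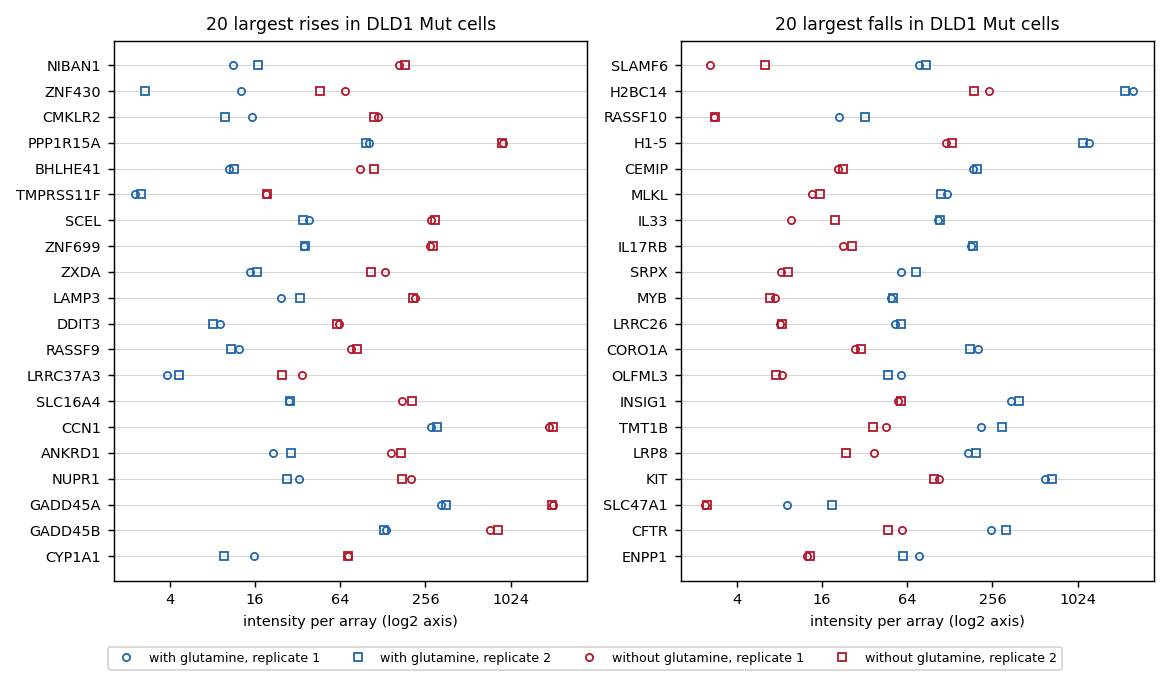
Intensity on each of the 4 DLD1 Mut arrays for the 20 largest rises (left) and the 20 largest falls (right) among called genes, on a log2 axis. Circles and squares are replicates 1 and 2, blue with and red without glutamine. The 2 colours are apart for every gene. SLAMF6, RASSF10 and SLC47A1 without glutamine, and TMPRSS11F and ZNF430 with it, are among the genes with a replicate near or below an intensity of 4.

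Targets of the Wnt pathway and genes of intestinal stem cells were mostly lower without glutamine. Of 22 genes in the list of Wnt targets and stem cell genes 19 were tested, and 13 fell, 1 rose and 5 were not called, with a median log2 change of -0.96 against -0.03 for all tested genes. KIT, the receptor for stem cell factor, had levels of 603 and 672 with glutamine and 108 and 99.8 without it (-2.62 ± 0.30, adjusted p = 9e-05). ASCL2, the transcription factor that sets the fate of crypt stem cells, fell from 101 and 89.7 to 22.9 and 18.8 (-2.20 ± 0.20, adjusted p = 1.6e-05). Named members with a role in feedback inhibition of the pathway were AXIN2, NKD1 and RNF43. AXIN2, a scaffold of the complex that destroys beta-catenin, went from 1144 and 1037 to 334 and 304 (-1.77 ± 0.21), and NKD1, which binds Dishevelled, from 60.5 and 65.6 to 14.8 and 12.2 (-2.23 ± 0.31). RNF43, a ubiquitin ligase that removes Wnt receptors and that was picked after its values were seen, fell from 359 and 343 to 213 and 208 (-0.74 ± 0.13, adjusted p = 0.00143). CD44, a hyaluronan receptor, fell from 156 and 232 to 54.3 and 51.7 (-1.84 ± 0.16). LGR5, the R-spondin receptor that marks crypt stem cells, changed less, from 368 and 402 to 193 and 202 (-0.96 ± 0.31, adjusted p = 0.0351). SOX9, a transcription factor of crypt progenitors, was the 1 member that rose, from 1022 and 904 to 1716 and 1612 (0.79 ± 0.09, adjusted p = 7.21e-05). MYC had a small fall, from 358 and 384 to 303 and 289.9 (-0.32 ± 0.09, adjusted p = 0.0157). The falls of LGR5, with any 1 of the 4 arrays left out, and of MYC, without replicate 2 of either group, were no longer called, with adjusted p up to 0.136 and 0.102 by limma, and the list then counted 8 falls without replicate 2 with glutamine or either replicate without it. Within the MYC and Mondo network 3 of 13 rose (23.1%) and 2 fell (15.4%), against 16.8% each way among all tested genes. Fewer falls were called without replicate 2 of either group or without replicate 1 with glutamine. MXD1, which competes with MYC for its partner MAX, rose from 133 and 143 to 356 and 389.6 (1.43 ± 0.11, adjusted p = 6.48e-06).

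Fewer Wnt ligands, receptors and secreted inhibitors were called, with 2 of 30 tested higher, 3 lower and a median of -0.14. Of 23 tested genes of enterocyte and secretory differentiation 6 fell and 0 rose, among them carbonic anhydrase CA2, which fell from 38.2 and 39.4 to 17.1 and 15.8 (-1.24 ± 0.14), and the mucin MUC13, which fell from 37.1 and 46.9 to 16.1 and 20.2 (-1.21 ± 0.21). Among the 15 markers of colon epithelium 3 fell, 1 rose and 11 were not called, with a median of -0.12. CDX2, the homeobox factor of intestinal identity, fell from 282 and 248 to 134 and 146 (-0.92 ± 0.10, adjusted p = 6.11e-05), and the epithelial ETS factor ELF3 rose from 37.7 and 37.5 to 67.5 and 67.6 (0.84 ± 0.13). Without replicate 1 with glutamine 2 differentiation genes fell, without replicate 2 of the cells deprived of it 5 epithelial markers and 1 Wnt ligand, receptor or inhibitor. Of this last list 1 rose without any 1 of the 4 arrays.

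Targets of YAP and TEAD rose more often than they fell. Of 20 tested genes 12 rose and 1 fell, with a median of 0.93, the highest among the 52 lists. CCN1, a secreted matricellular protein, rose from 279 and 308 to 1910 and 2018 (2.74 ± 0.17, adjusted p = 2.17e-06), and its relative CCN2 from 40.6 and 57.7 to 229 and 217 (2.20 ± 0.18). ANKRD1, an ankyrin repeat protein that is a common reporter of YAP activity, rose from 21.6 and 29.0 to 146 and 173 (2.67 ± 0.18). Of the named members AMOTL2, LATS2 and PTPN14 are known to restrain YAP. AMOTL2, an angiomotin, went from 49.8 and 55.3 to 169 and 149.5 (1.60 ± 0.11), the kinase LATS2 from 144 and 131 to 361 and 315 (1.30 ± 0.10), and the phosphatase PTPN14 from 211 and 199 to 548 and 471 (1.31 ± 0.10, adjusted p = 8.15e-06). TEAD4, a DNA-binding partner of YAP, was the 1 member that fell, from 219 and 235 to 168 and 163 (-0.46 ± 0.11, adjusted p = 0.00981), and this call was lost without replicate 2 of either group.

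Immediate early genes, which answer growth factors and stress within minutes, rose more often than they fell. Of 20 tested 10 rose and 2 fell, with a median of 0.36. JUN, a subunit of the transcription factor AP-1, rose from 146 and 164 to 656 and 693 (2.13 ± 0.10, adjusted p = 9.16e-07). Its partners of the FOS family FOSL1 and FOSL2 rose from 248 and 212 to 474 and 429 (0.97 ± 0.12) and from 30.3 and 35.5 to 68.6 and 66.1 (1.04 ± 0.11). KLF6, a zinc finger transcription factor, rose from 206 and 229 to 855 and 968 (2.07 ± 0.15). IER3, an immediate early gene that limits cell death, fell from 796 and 760.4 to 396 and 359 (-1.04 ± 0.09, adjusted p = 1.6e-05), and 1 of the list fell without replicate 2 with glutamine or replicate 1 deprived of it.

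The output genes of the ERK kinase pathway rose in 13 of 24 cases and fell in 3, with a median of 0.49. DUSP5, a phosphatase that switches ERK off in the nucleus, rose from 100.3 and 115 to 277 and 327 (1.49 ± 0.13), and SPRED1, an inhibitor of RAF activation, from 181 and 211 to 442 and 463 (1.21 ± 0.11). EPHA2, an ephrin receptor, rose from 215 and 208 to 543 and 536 (1.35 ± 0.10, adjusted p = 6.48e-06). Of 12 tested Eph receptors and ephrins, EPHA2 among them, 6 fell and 2 rose. The ligand EFNA3 fell from 32.0 and 34.4 to 14.4 and 12.9 (-1.28 ± 0.18), and the ligand EFNB2 rose from 253 and 238 to 466 and 443 (0.89 ± 0.10). Without replicate 2 with glutamine 2 of the 12 fell, and without any other 1 of the 4 arrays 3 fell.

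Many growth factor genes rose. Among secreted stress hormones and growth factors 8 of 13 tested rose and 0 fell. EREG, the EGF receptor ligand epiregulin, rose from 2058 and 2005 to 3897 and 3806 (0.92 ± 0.08, adjusted p = 1.1e-05). ADM, the peptide hormone adrenomedullin, rose from 16.7 and 19.2 to 60.6 and 74.5 (1.91 ± 0.15), and VEGFA, the vascular growth factor, from 50.5 and 48.4 to 123 and 112 (1.24 ± 0.11). Of 21 FOXO targets and growth factor receptors 13 rose and 2 fell, with a median of 0.51. FOXO factors are held out of the nucleus by phosphoinositide 3-kinase signalling. EGFR itself went from 194 and 198 to 594 and 600.2 (1.61 ± 0.12, adjusted p = 5.9e-06), and IRS2, an adaptor of the insulin receptor, from 11.9 and 14.2 to 48.1 and 52.5 (1.95 ± 0.18). ERBB3, the receptor for neuregulins, fell from 66.9 and 79.1 to 35.7 and 42.7 (-0.90 ± 0.13), and with any 1 array left out 1 gene of the list fell. TXNIP, which limits glucose uptake, rose from 97.3 and 137 to 397 and 467 (1.90 ± 0.25, adjusted p = 0.000195).

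Clock genes rose more often than they fell. Of 16 tested clock genes 9 rose and 1 fell, with a median of 0.75. BHLHE41, a repressor that binds E-boxes, was at 10.5 and 11.5 with glutamine and 88.1 and 112 without it (3.18 ± 0.15, adjusted p = 9.16e-07). The period gene PER1 rose from 35.1 and 29.6 to 156 and 163 (2.31 ± 0.12, adjusted p = 1.07e-06), and the cryptochrome CRY1 from 76.7 and 75.6 to 184 and 182 (1.27 ± 0.10). NR1D2, the nuclear receptor REV-ERB-beta, went from 76.6 and 85.9 to 266 and 259 (1.69 ± 0.11). DBP, a transcription factor driven by the clock, was the 1 member that fell, from 132 and 142 to 74.9 and 92.2 (-0.73 ± 0.18, adjusted p = 0.00881). Its call was lost, leaving 0 falls, without replicate 2 with glutamine and without replicate 1 deprived of it (adjusted p = 0.0553 and 0.0768 by limma). Without replicate 1 with glutamine 2 clock genes fell. Each group was harvested at 1 time, so no phase of the clock was measured.

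**Figure D2:**
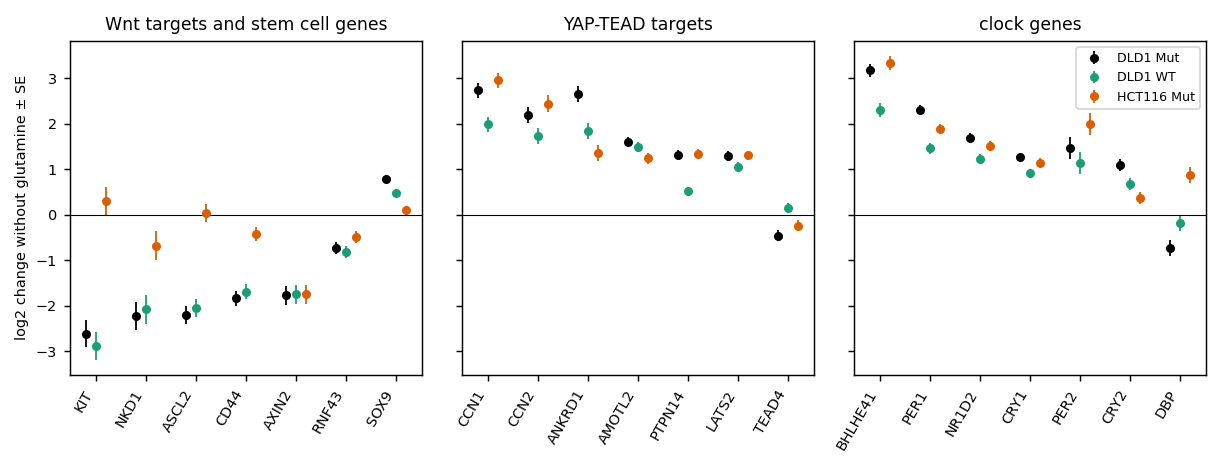
Log2 change without minus with glutamine, with limma's SE, for Wnt targets and stem cell genes (left), YAP-TEAD targets (middle) and clock genes (right), in DLD1 Mut (black), DLD1 WT (green) and HCT116 Mut cells (orange), 2 arrays in each group. KIT, ASCL2 and CD44 fell in both DLD1 derivatives and were not called in HCT116 Mut cells, where their changes were 0.30, 0.05 and -0.42.

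To show the sequence around the start of some of these genes, the 250 bases before the RefSeq start site are printed 5′ to 3′ on the strand of the gene for members of the clock, YAP-TEAD and histone lists, for SCEL and TMPRSS11F from the largest rises, and for ASNS, CHAC1 and NRIP1, whose response differed between the DLD1 derivatives. Capitals mark a match to a short motif on either strand, and all coordinates are those of GRCh38.p14. The E-box CACGTG, bound by basic helix-loop-helix factors, is marked in BHLHE41 (chr12:26125038-26125287, minus strand) and PER1 (chr17:8152405-8152654, minus strand).
BHLHE41: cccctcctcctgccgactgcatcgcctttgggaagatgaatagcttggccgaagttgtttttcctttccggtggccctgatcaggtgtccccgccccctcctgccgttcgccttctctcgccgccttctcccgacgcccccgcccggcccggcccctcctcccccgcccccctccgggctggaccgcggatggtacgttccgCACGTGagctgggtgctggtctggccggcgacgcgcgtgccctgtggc
PER1: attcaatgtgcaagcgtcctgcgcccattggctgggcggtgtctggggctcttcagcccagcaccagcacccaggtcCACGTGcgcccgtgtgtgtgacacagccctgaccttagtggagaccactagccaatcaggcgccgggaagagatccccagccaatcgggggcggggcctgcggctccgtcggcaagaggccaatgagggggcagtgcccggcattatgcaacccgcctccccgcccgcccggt
A loose form of the AP-1 site, TGANTCA with any base at the centre, is marked in ANKRD1 (chr10:90921088-90921337, minus strand), SCEL (chr13:77535456-77535705, plus strand) and TMPRSS11F (chr4:68129870-68130119, minus strand). Of these only the match in SCEL, TGACTCA, has the C or G at the centre of the usual AP-1 site.
ANKRD1: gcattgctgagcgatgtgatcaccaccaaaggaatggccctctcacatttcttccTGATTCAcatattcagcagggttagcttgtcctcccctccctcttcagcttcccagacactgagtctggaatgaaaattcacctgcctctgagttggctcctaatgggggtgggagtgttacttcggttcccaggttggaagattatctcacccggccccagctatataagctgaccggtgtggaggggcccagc
SCEL: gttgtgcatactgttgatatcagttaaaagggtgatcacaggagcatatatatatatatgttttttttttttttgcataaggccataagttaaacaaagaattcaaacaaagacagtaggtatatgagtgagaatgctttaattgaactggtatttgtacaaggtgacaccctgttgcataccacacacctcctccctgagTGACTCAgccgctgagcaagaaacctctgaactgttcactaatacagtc
TMPRSS11F: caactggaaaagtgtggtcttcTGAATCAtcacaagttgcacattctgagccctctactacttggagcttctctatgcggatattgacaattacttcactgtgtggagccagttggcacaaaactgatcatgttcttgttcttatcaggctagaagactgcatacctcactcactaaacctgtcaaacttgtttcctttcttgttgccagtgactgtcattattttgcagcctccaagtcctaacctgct
The core of the amino acid response element, TGATGNAAN, to which ATF4 binds with C/EBP factors, is marked in ASNS (chr7:97872409-97872658, minus strand), CHAC1 (chr15:40953221-40953470, plus strand, where it lies on the opposite strand) and NRIP1 (chr21:15065937-15066186, minus strand).
ASNS: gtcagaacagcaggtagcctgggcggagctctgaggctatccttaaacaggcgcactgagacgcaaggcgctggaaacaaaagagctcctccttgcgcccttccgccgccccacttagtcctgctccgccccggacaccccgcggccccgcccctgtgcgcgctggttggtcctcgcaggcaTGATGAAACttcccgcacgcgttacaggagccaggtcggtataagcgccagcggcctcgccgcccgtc
CHAC1: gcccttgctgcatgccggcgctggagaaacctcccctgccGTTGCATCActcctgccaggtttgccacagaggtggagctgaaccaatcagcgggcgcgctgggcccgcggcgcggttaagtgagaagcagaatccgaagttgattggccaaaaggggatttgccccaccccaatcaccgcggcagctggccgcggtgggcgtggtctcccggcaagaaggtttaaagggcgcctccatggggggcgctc
NRIP1: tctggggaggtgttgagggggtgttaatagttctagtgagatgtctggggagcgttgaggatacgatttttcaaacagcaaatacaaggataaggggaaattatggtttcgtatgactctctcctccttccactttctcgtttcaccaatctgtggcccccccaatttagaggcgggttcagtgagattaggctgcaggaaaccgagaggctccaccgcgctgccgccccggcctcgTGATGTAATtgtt
A form of the E2F site, TTTNGCGC, is marked in the histone gene H2BC14 (chr6:27814772-27815021, plus strand, where it lies on the opposite strand).
H2BC14: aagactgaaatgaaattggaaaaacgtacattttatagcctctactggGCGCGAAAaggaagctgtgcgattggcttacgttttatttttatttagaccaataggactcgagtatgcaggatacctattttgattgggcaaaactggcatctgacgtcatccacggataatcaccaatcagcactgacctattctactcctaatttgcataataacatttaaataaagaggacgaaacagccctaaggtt
These matches describe letters in the window and not sites in use. Every printed sequence holds a match to the motif named for it, so the printed genes do not show how often their lists carry it. Promoter windows of 300 bases, 250 before and 50 after the start, were found for 11735 of the tested genes, 2179 of them rises and 2120 falls, and 27305 windows make up the whole table. The E-box was in 11.0% of the windows of rises, 11.4% of falls and 9.68% of all tested genes, and in 7.43% of the whole table. The loose AP-1 form TGANTCA was in 5.23% of rises, 3.02% of falls, 4.91% of tested genes and 7.76% of the table. For the E2F form the shares were 2.71%, 4.2%, 2.62% and 1.83%, for the amino acid core 2.16%, 1.51%, 1.93% and 3.67%, and for a form of the TCF site, CTTTGATC, 0.367%, 0.283%, 0.375% and 0.656%. None of these shares was tested.

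Genes of autophagy and lysosomes rose in 18 of 37 cases and fell in 3, with a median of 0.39. MAP1LC3B, which coats autophagosomes, rose from 6.74 and 6.11 to 19.4 and 19.0 (1.58 ± 0.16, adjusted p = 4.19e-05), and its relative GABARAPL1 from 84.4 and 81.2 to 149.5 and 161 (0.91 ± 0.11). FNIP1, a partner of folliculin in nutrient sensing at the lysosome, rose from 153 and 164 to 391 and 408 (1.34 ± 0.10). GLA, the lysosomal alpha-galactosidase, fell from 291 and 333 to 123 and 125 (-1.33 ± 0.10, adjusted p = 6.48e-06). The leucine sensor SESN2, one of 14 brakes of mTORC1 of which 5 rose and 2 fell (0 or 1 with any 1 array left out), rose from 76.9 and 94.6 to 449.7 and 410.3 (2.33 ± 0.12).

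Enzymes that charge transfer RNA rose more often than they fell. Of 19 cytosolic aminoacyl-tRNA synthetases 12 rose and 3 fell, with a median of 0.37, and 7 rose and 3 fell with the 4 arrays fitted alone. SARS1, the seryl enzyme, rose from 309.5 and 286 to 746 and 773 (1.35 ± 0.10, adjusted p = 6.25e-06), and AARS1, the alanyl enzyme, from 635 and 589 to 1117 and 1068 (0.84 ± 0.08). KARS1, the lysyl enzyme, fell from 935 and 962 to 529.5 and 557 (-0.80 ± 0.09, adjusted p = 5.94e-05). Amino acid transporters were evenly split, with 7 higher and 7 lower of 25 tested. SLC7A11, which exchanges glutamate for cystine, rose from 386 and 419 to 930.3 and 927 (1.21 ± 0.11), and SLC3A2, its heavy chain, from 1235 and 1196 to 1994 and 1998 (0.72 ± 0.08). SLC6A6, the taurine transporter, fell from 506 and 454 to 167 and 149.6 (-1.60 ± 0.11, adjusted p = 3.88e-06).

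Of 25 tested enzymes that use or make glutamine and glutamate 3 rose and 9 fell. ASNS, which makes asparagine with the nitrogen of glutamine, rose from 139.6 and 125 to 296 and 294 (1.16 ± 0.11, adjusted p = 1.84e-05). The aspartate transaminases went in opposite directions. The cytosolic GOT1 rose from 795 and 788 to 1688 and 1648 (1.08 ± 0.08), and the mitochondrial GOT2 fell from 1233 and 1176 to 587 and 630.4 (-0.99 ± 0.09, adjusted p = 1.4e-05). CTPS1, which makes CTP with glutamine nitrogen, fell from 229 and 231 to 103 and 123 (-1.03 ± 0.14). GLUL, glutamine synthetase, was read by a dim probe set at 9.82 and 10.2 with glutamine and 9.15 and 10.2 without it and was not called (-0.05 ± 0.21, adjusted p = 0.885). Among 16 enzymes of serine, glycine and folate metabolism 5 fell and 3 rose, the latter 1 without replicate 2 of either group. MAT2A, which makes the methyl donor S-adenosylmethionine, fell from 596 and 603 to 162 and 197 (-1.75 ± 0.11, adjusted p = 2.8e-06), and TYMS, thymidylate synthase, from 1219 and 1234 to 436 and 451 (-1.47 ± 0.09).

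Most parts of energy metabolism had more falls than rises. Glycolysis and glucose uptake genes fell in 13 of 24 cases and rose in 2, with a median of -0.52. GPI, the isomerase of glucose phosphate, fell from 2054 and 1820 to 856 and 751 (-1.27 ± 0.12, adjusted p = 2.2e-05), and PFKFB2, a bifunctional enzyme that sets fructose bisphosphate, rose from 61.6 and 68.7 to 135 and 149 (1.12 ± 0.16). In the tricarboxylic acid cycle 10 of 24 fell and 4 rose. IDH2, mitochondrial isocitrate dehydrogenase, fell from 223 and 240.5 to 75 and 80.5 (-1.58 ± 0.11), and OGDH, which oxidises the alpha-ketoglutarate that glutamine supplies, rose from 420.1 and 446 to 843 and 888 (1.00 ± 0.11, adjusted p = 6.71e-05). Of 39 complex I genes 16 fell and 1 rose, and of 39 genes of complexes II to IV and ATP synthase 14 and 1. ATP5F1D, a subunit of the ATP synthase, fell from 1518 and 1305 to 614 and 539.5 (-1.29 ± 0.16). Of 71 mitochondrial ribosomal protein genes 28 fell and 9 rose, with MRPS34 going from 970.0 and 1032 to 416 and 453 (-1.20 ± 0.09). These counts were lower with fewer arrays. Of the cycle genes 6 fell without either replicate with glutamine or replicate 1 deprived of it, and of complex I genes 9 without either replicate with glutamine and 10 without replicate 2 deprived of it. Without this last array 9 genes of the other complexes fell and 18 of the mitochondrial ribosome, and without replicate 2 with glutamine 17 of the latter. Rises in the mitochondrial ribosome numbered 3 to 5 with any 1 array left out, those in the cycle 2 without replicate 1 with glutamine or replicate 2 deprived of it, and in the complexes other than I none with any 1 array left out. For complex I 2 rose without replicate 2 deprived of glutamine, and for glycolysis 1 without replicate 2 with glutamine or either replicate deprived of it. With the 4 arrays fitted alone the falls numbered 4, 8, 6 and 15 in the cycle, complex I, the other complexes and the mitochondrial ribosome, and 8 in the proteasome.

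Genes of cytosolic protein turnover and ribosome making were likewise more often lower. Among 33 proteasome subunits 14 fell and 2 rose, a number that was 0 with any 1 array left out and 4 or 5 with quantile or median scaling. PSMD1, a scaffold of the regulatory particle, went from 1159 and 1151 to 496 and 492 (-1.23 ± 0.09, adjusted p = 5.66e-06). Of 30 ribosome biogenesis genes 13 fell and 1 rose. BOP1, which processes ribosomal RNA of the large subunit, fell from 114 and 115 to 38.6 and 38.9 (-1.56 ± 0.11). RRN3, the initiation factor of RNA polymerase I, was the 1 that rose, from 153 and 160.5 to 235 and 239.5 (0.60 ± 0.10). Small nucleolar and Cajal body RNAs, which guide changes to ribosomal and spliceosomal RNA, fell in 30 of 144 cases (20.8%) and rose in 2 (1.39%). Their share of falls was close to the 16.8% of all tested genes and their share of rises was below it. Cytosolic ribosomal proteins fell in 10 of 53 cases (18.9%), also close to the share of falls among all genes, and rose in 0. Copies elsewhere in the genome make the values of these protein genes uncertain. Of 15 enzymes of proline, arginine and polyamine metabolism 5 fell and 3 rose. Spermidine synthase, SRM, fell from 2285 and 2160 to 737 and 784 (-1.55 ± 0.10, adjusted p = 3.63e-06), while the polyamine regulator AZIN1 rose from 258 and 258 to 474 and 516 (0.94 ± 0.09). Of the small RNAs 1 rose without replicate 1 with glutamine and 0 without replicate 2 of either group. Without replicate 1 with glutamine the falls numbered 13 small RNAs, 2 ribosomal proteins and 3 enzymes of this group. Ribosomal protein falls numbered 6 without replicate 2 with glutamine or replicate 1 deprived of it, small RNA falls 18 without replicate 2 deprived of it, and enzyme falls 3 without replicate 1 deprived of it.

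**Figure D3:**
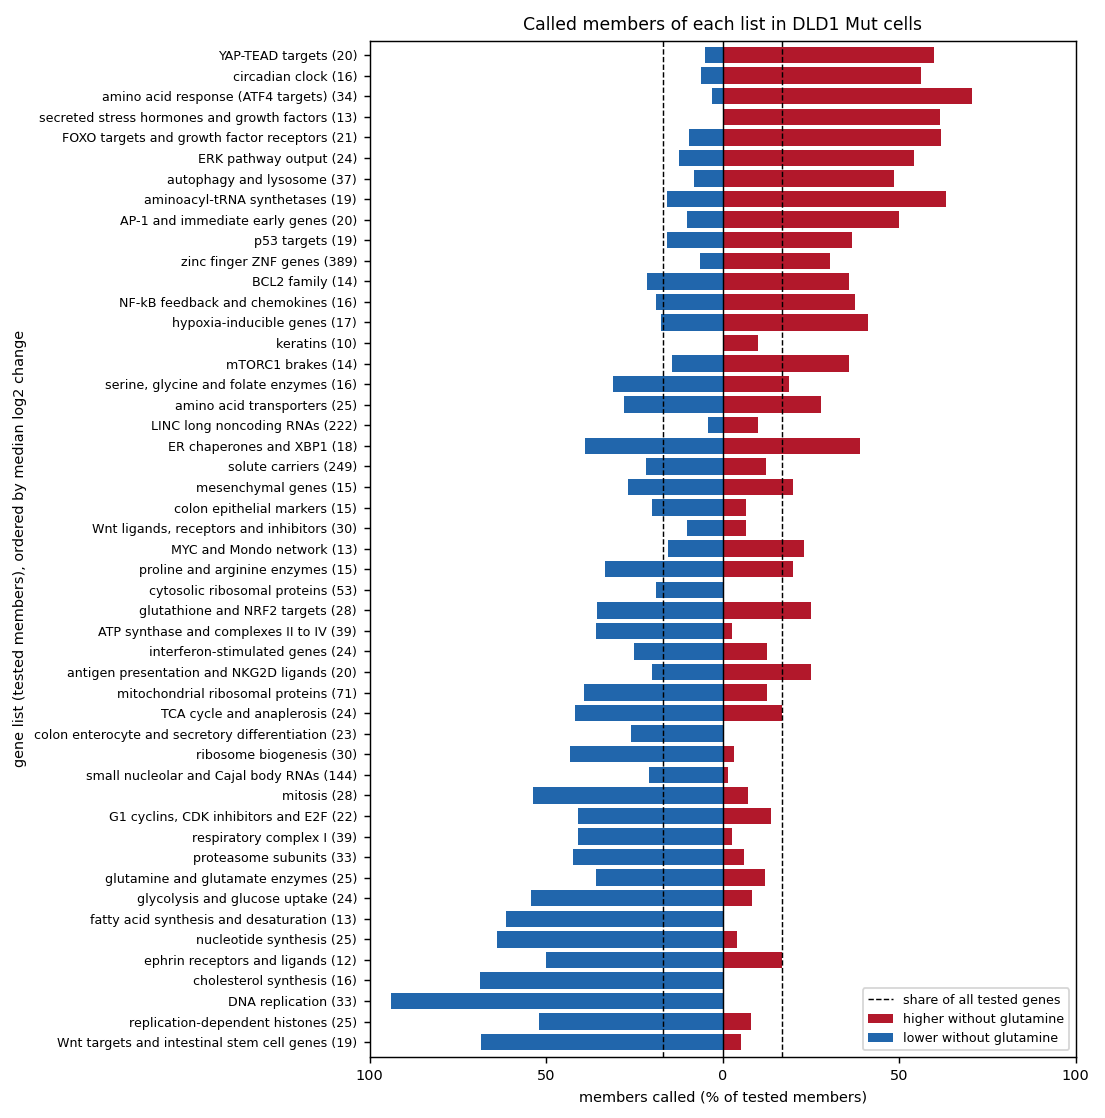
Share of tested members called higher (red, right) or lower (blue, left) without glutamine in DLD1 Mut cells for 49 gene lists, ordered by median log2 change, with the number of tested members in parentheses. Dashed lines mark the 16.8% of all tested genes called in each direction. YAP-TEAD targets stand at the top and Wnt targets and stem cell genes at the bottom.

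Genes of the cell cycle were mostly lower. Of 33 DNA replication genes 31 fell, with a median of -0.89, and none rose. Of 25 nucleotide synthesis genes 16 fell, and 1, the uridine phosphorylase UPP1, which breaks uridine down, rose from 18.4 and 16 to 71.1 and 54.1 (1.85 ± 0.23). Of 28 genes of mitosis 15 fell and 2 rose, and only 1 rose without either replicate with glutamine or without replicate 2 deprived of it. CDC20, an activator of the anaphase-promoting complex, fell from 1073 and 975 to 441 and 458 (-1.19 ± 0.10), and PLK1, a mitotic kinase, from 1126 and 1050 to 494 and 529.5 (-1.09 ± 0.09, adjusted p = 7.58e-06). Among 22 G1 cyclins, CDK inhibitors and E2F genes 9 fell and 3 rose. Cyclin E1, CCNE1, fell from 337 and 344 to 114 and 115 (-1.57 ± 0.10, adjusted p = 2.8e-06). CDKN2B, the inhibitor p15 of G1 kinases, rose from 6.51 and 5.52 to 28.3 and 33.8 (2.37 ± 0.18, adjusted p = 6.62e-06), while CDKN1A, the inhibitor p21, was at 11.4 and 8.67 and 11.2 and 13.1 and was not called (0.28 ± 0.15, adjusted p = 0.184).

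Replication-dependent histone genes, whose messages lack a poly(A) tail and are made in S phase, fell in 13 of 25 tested cases and rose in 2, with a median of -0.96. H2BC14 fell from 2510 and 2195 to 242 and 189.9 (-3.45 ± 0.18, adjusted p = 1.17e-06) and the linker histone H1-5 from 1230 and 1120 to 121 and 134 (-3.21 ± 0.33). H2AC21 went from 1429 and 1321 to 626 and 624 (-1.14 ± 0.10). H2BC15 rose from 16 and 24.0 to 43.5 and 55.5 (1.33 ± 0.26, adjusted p = 0.00232). Histone genes are near-identical in their coding sequence, so the value of any single one is uncertain.

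Lipid synthesis genes were lower. Of 16 cholesterol synthesis genes 11 fell and of 13 fatty acid genes 8, with no rise in either list. SCD, the desaturase that makes oleate, fell from 1107 and 1210 to 318 and 314 (-1.87 ± 0.10, adjusted p = 1.16e-06), and FASN, fatty acid synthase, from 266 and 248 to 79.5 and 79.4 (-1.69 ± 0.10). Without replicate 1 with glutamine or replicate 2 deprived of it 5 fatty acid genes fell. Among 28 glutathione genes and targets of NRF2, a transcription factor of the response to oxidants, 10 fell and 7 rose. PRDX1, a peroxiredoxin, fell from 2414 and 2417 to 1087 and 1072 (-1.16 ± 0.09), and TXNRD1, thioredoxin reductase, rose from 245 and 219 to 381 and 384 (0.72 ± 0.09, adjusted p = 0.000156).

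Genes of cell death and of the p53 response moved both ways. Of 19 p53 targets 7 rose (36.8%) and 3 fell (15.8%), against 16.8% each way among all tested genes. Their median was 0.21, and 1 fell without replicate 1 with glutamine. TP53INP1, which promotes autophagy and cell death, rose from 3.30 and 4.89 to 12.1 and 9.48 (1.41 ± 0.24, adjusted p = 0.00101), and the death receptor TNFRSF10B from 205 and 201 to 371 and 380.3 (0.89 ± 0.09). The death receptor FAS fell from 34.4 and 42.5 to 18.1 and 16.9 (-1.13 ± 0.21, adjusted p = 0.00187). In the BCL2 family 5 of 14 rose (35.7%) and 3 fell (21.4%). MCL1, which protects against apoptosis, rose from 418 and 460.3 to 818 and 827 (0.91 ± 0.11), and the death-promoting BBC3, known as PUMA, from 21.2 and 17.9 to 32.3 and 29.5 (0.67 ± 0.18). BID, which links death receptors to mitochondria, fell from 139 and 141 to 59.6 and 55.3 (-1.29 ± 0.10, adjusted p = 9.09e-06). Without replicate 2 with glutamine 3 members of the family rose, without replicate 2 deprived of it 1 fell, and BBC3 was not called there or without replicate 1 deprived of glutamine (adjusted p = 0.105 and 0.0847 by limma).

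Of 17 hypoxia-inducible genes 7 rose (41.2%) and 3 fell (17.6%), against 16.8% each way among all tested genes. The rises included ADM, VEGFA and TXNIP, described above, while HILPDA, which inhibits lipolysis at lipid droplets, fell from 108 and 72.8 to 35.8 and 39.7 (-1.23 ± 0.21, adjusted p = 0.000943). Mesenchymal genes were split, with 3 of 15 higher and 4 lower. LAMB3, a chain of the basement membrane protein laminin-332, rose from 158 and 187 to 558 and 657 (1.82 ± 0.11, adjusted p = 1.89e-06), and SNAI1, a repressor of E-cadherin, fell from 34.9 and 41.6 to 17.3 and 15.8 (-1.20 ± 0.28). Of 10 keratins 1 was called, KRT80, which rose from 115 and 127 to 523 and 492 (2.07 ± 0.17, adjusted p = 9.74e-06), and 1 fell without replicate 2 deprived of glutamine.

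Chaperones and other genes of the endoplasmic reticulum were split, and of 18 tested 7 rose and 7 fell. ERN1, the stress sensor IRE1, rose from 30.7 and 28.1 to 128 and 115 (2.05 ± 0.12, adjusted p = 2.17e-06), and HERPUD1, which serves the degradation of misfolded proteins, from 218 and 243 to 534 and 555 (1.24 ± 0.10). PDIA4, a disulfide isomerase, fell from 472 and 535 to 180.3 and 194 (-1.43 ± 0.10, adjusted p = 5.17e-06), and the calcium-binding chaperone CALR from 3879 and 4034 to 2429 and 2426 (-0.70 ± 0.08).

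Inflammatory genes were mixed. In the NF-kB list 6 of 16 tested rose and 3 fell. RELB and NFKB2, the subunits of the noncanonical pathway, rose from 27.9 and 26.2 to 84.8 and 79.2 (1.60 ± 0.16) and from 63.8 and 57.5 to 173 and 154 (1.43 ± 0.14). The chemokine CXCL5 fell from 3972 and 4428 to 1578 and 1541 (-1.43 ± 0.12, adjusted p = 1.46e-05). CXCL8, interleukin-8, stayed near the array median at 4.22 and 4.56 and 3.88 and 6.02 (0.14 ± 0.18, adjusted p = 0.622). Of 24 interferon-stimulated genes 6 fell (25.0%) and 3 rose (12.5%), against 16.8% each way among all genes. OAS1, a sensor of double-stranded RNA, fell from 49.0 and 57.8 to 11.9 and 9.0 (-2.36 ± 0.19), and IFI6, a mitochondrial interferon-induced protein, from 151 and 163 to 43.2 and 39.6 (-1.92 ± 0.11, adjusted p = 1.47e-06), while 3 genes of the list fell without replicate 1 deprived of glutamine. Of 20 genes of antigen presentation and ligands of the killer cell receptor NKG2D 5 rose and 4 fell, shares near those of all genes, and 1 fell without replicate 2 with glutamine and 2 without replicate 1 deprived of it. The ligand ULBP1 rose from 41.1 and 60.1 to 219.6 and 234 (2.19 ± 0.22).

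Solute carriers, the largest family of membrane transporters, fell in 54 of 249 cases (21.7%) and rose in 31 (12.4%), against 16.8% each way among all genes, and 18 rose without replicate 1 with glutamine. SLC29A1, which takes up nucleosides, fell from 254 and 234 to 57.7 and 54.8 (-2.12 ± 0.10, adjusted p = 9.16e-07). The mitochondrial citrate carrier SLC25A1 fell from 449 and 374 to 129 and 136 (-1.63 ± 0.12) and SLC25A10, the dicarboxylate carrier, from 362 and 390.0 to 107 and 112 (-1.78 ± 0.13). SLC12A2, a sodium, potassium and chloride cotransporter, fell from 1460 and 1505 to 440.2 and 421 (-1.78 ± 0.11), and SLC25A36, a mitochondrial carrier of pyrimidine nucleotides, rose from 111 and 112 to 215 and 251 (1.05 ± 0.10).

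Zinc finger genes named ZNF rose in 118 of 389 tested cases (30.3%) and fell in 25 (6.43%), against 16.8% each way among all genes, with a median of 0.21. ZNF699 rose from 35.3 and 36.1 to 275 and 289 (2.98 ± 0.19, adjusted p = 2.5e-06) and ZNF622, a ribosome biogenesis factor, from 138 and 148 to 344 and 367 (1.31 ± 0.10). ZNF511 fell from 316 and 279 to 102 and 111 (-1.48 ± 0.18). Many of these genes lie in clusters of close copies, so single values are uncertain. Of 222 tested long noncoding RNAs named LINC 22 rose and 9 fell, below the shares of all genes. Without replicate 1 with glutamine 75 ZNF genes rose and 15 fell, without replicate 2 with glutamine 75 and 12, and without replicate 1 deprived of it 13 fell.

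Set beside the other derivative of the line, which shares no array with it, most of the response recurred. Both responses were called with 1 shared estimate of the spread per gene, so their calls are not independent. This also holds for HCT116 Mut cells below. Of the 2636 rises in DLD1 Mut cells 1627 were also called as rises in DLD1 WT cells, 61.7% of the former and 73.9% of the 2202 rises of the latter, where 27.0% of tested genes were called, and of the 2632 falls 1522 were shared, 57.8% and 74.9% of the 2033. Of the rises 7 were called as falls in DLD1 WT cells and of the falls 20 as rises. A test of the difference between the responses called 129 genes, 0.823% of those tested, 40 with a higher change in DLD1 Mut cells (0.255%) and 89 with a lower one (0.568%). This count was sensitive to the fit. It was 3 when the DLD1 arrays were fitted separately and between 15 and 36 when any 1 of the 8 DLD1 arrays was left out.

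The amino acid response held the most called differences of the 52 lists. In DLD1 Mut cells 24 of 34 tested ATF4 targets rose and 1 fell (0 with any 1 array left out), with a median of 0.74, while in DLD1 WT cells 32 rose and 0 fell, with a median of 1.40. The difference was called for 13 genes, all lower in DLD1 Mut cells, 1 in the separate fit and 4 to 7 with an array left out. Of the 34 genes 29 had the lower change in DLD1 Mut cells.

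DDIT4, an inhibitor of mTORC1, was at 179.7 and 247 with glutamine and 641 and 674 without it in DLD1 Mut cells, and went from 31.1 and 32.4 to 536 and 515 in DLD1 WT cells. Its levels without glutamine lay close together and those with glutamine far apart, and the changes of 1.64 and 4.05 differed by -2.40 ± 0.19 (adjusted p = 0.000777). CHAC1, which breaks down glutathione, went from 290.3 and 299.8 to 473 and 486 in DLD1 Mut and from 88.5 and 77.8 to 513 and 522 in DLD1 WT cells (difference -1.94 ± 0.18, adjusted p = 0.00161). ASNS went from 69.0 and 75.7 to 336 and 368 in DLD1 WT cells, more than the 1.16 given above for DLD1 Mut cells (difference -1.12 ± 0.15, adjusted p = 0.0112). PHGDH, the first enzyme of serine synthesis, went from 391 and 385 to 522 and 542 in DLD1 Mut cells and from 187 and 157 to 565 and 594 in DLD1 WT cells (difference -1.30 ± 0.13, adjusted p = 0.00358). In these 4 genes the level with glutamine was higher in both arrays of DLD1 Mut cells than in both of DLD1 WT cells, and the derivatives lay closer together without it. Of the 16 enzymes of serine, glycine and folate metabolism, PHGDH among them, the difference was called for 6, again all lower in DLD1 Mut cells, for 0 in the separate fit and for 2 to 4 with any 1 array left out. ATF4 itself rose from 734 and 675 to 1430 and 1267 in DLD1 Mut (0.93 ± 0.10) and by 0.99 ± 0.10 in DLD1 WT cells, and the difference of -0.06 ± 0.14 was not called (adjusted p = 0.893).

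Some genes had a higher change in DLD1 Mut cells than in DLD1 WT cells. TMPRSS11F, described above, was at 3.18 and 3.94 with and 2.92 and 3.76 without glutamine in DLD1 WT cells, all near the array median, and the difference between the changes was 3.10 ± 0.19 (adjusted p = 0.00016). NRIP1, a corepressor of nuclear receptors, rose from 3.16 and 4.02 to 19.1 and 22.3 in DLD1 Mut cells, while in DLD1 WT cells it went from 114 and 138 to 170.4 and 161 (difference 2.13 ± 0.19, adjusted p = 0.00161). CYP1A1 went from 13.5 and 14.1 to 22.1 and 25.2 in DLD1 WT cells (difference 1.78 ± 0.28, adjusted p = 0.0275). PTPN14 went from 219.7 and 229 to 316 and 325 in those cells, less than in DLD1 Mut cells (difference 0.80 ± 0.15, adjusted p = 0.0412). PTGS2, the inducible cyclooxygenase, was dim and not called in DLD1 Mut cells, at 3.02 and 2.67 and 3.93 and 2.85. In DLD1 WT cells it fell from 13.1 and 18.1 to 4.5 and 4.67 (difference 1.98 ± 0.26, adjusted p = 0.011). With glutamine its levels in DLD1 Mut cells lay below the array median, so a fall could not be seen there. The calls of ASNS, CYP1A1 and PTPN14 were lost in at least 6 of the 17 other settings tried, and those of CHAC1 and TMPRSS11F in none of theirs. DDIT4, NRIP1, PHGDH and PTGS2 were not called in the separate fit (adjusted p = 0.0682 to 0.102 by limma), and PTGS2 also not without either DLD1 WT replicate deprived of glutamine (0.052 and 0.0537). With an offset of 16 before log2 the difference was 0.96 for TMPRSS11F, 0.54 for NRIP1 and 0.65 for PTGS2. In the replication list the difference was called for 8 genes, each lower in DLD1 Mut cells, and 32 of the 33 were lower there, but 0 were called in the separate fit and 0 to 2 with an array left out.

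**Figure D4:**
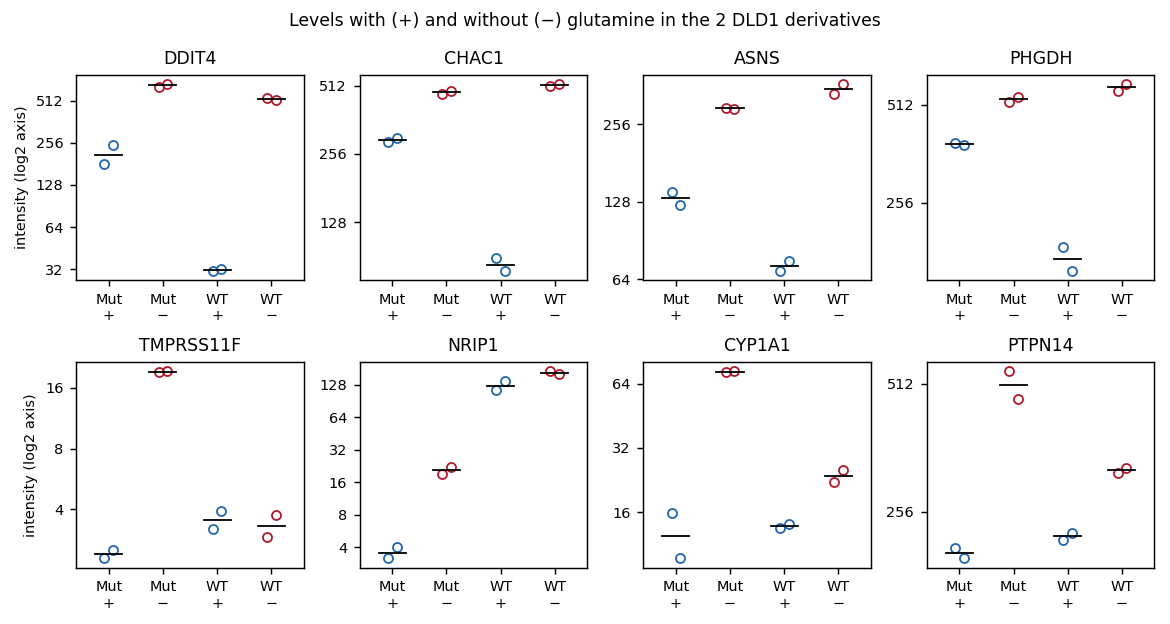
Intensity on a log2 axis with (+, blue) and without (−, red) glutamine in DLD1 Mut and DLD1 WT cells for 8 genes whose response differed between the derivatives. Points are the 2 arrays of a group and lines their geometric mean. For DDIT4, CHAC1, ASNS and PHGDH the derivatives lie furthest apart with glutamine, and TMPRSS11F is raised in DLD1 Mut cells without glutamine alone.

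HCT116 Mut cells, of another line but with the same PIK3CA label, also shared much of the response. In these cells 32.9% of tested genes were called, 16.4% as rises and 16.5% as falls. Of the rises in DLD1 Mut cells 1409 were also rises in HCT116 Mut cells, 53.5% of the former and 54.7% of the 2574 in the latter. The shared falls numbered 1481, 56.3% and 57.3% of the 2585. The opposite call was made for 96 rises and 83 falls. The difference between the lines was called for 1919 genes, 12.2% of those tested, 971 higher in DLD1 Mut (6.19%) and 948 lower (6.05%), and line and clone cannot be told apart in it. It was 1169 to 1244 when any 1 of the 4 DLD1 Mut arrays was left out. Of the Wnt targets and stem cell genes 4 of 19 fell in HCT116 Mut cells and 1 rose, and the difference was called for 5 with the lower change in DLD1 Mut cells and 1 with the higher. KIT was at 2.87 and 5.54 with and 5.49 and 4.39 without glutamine in HCT116 Mut cells, all near the array median, and changed by 0.30 ± 0.30 (difference -2.92 ± 0.43, adjusted p = 0.00232). SLAMF6 was at 2.24 and 2.73 with and 2.40 and 2.40 without glutamine there, below the array median in both groups (difference -4.29 ± 0.43, adjusted p = 0.000361). AXIN2 also fell in HCT116 Mut cells (-1.75 ± 0.21), and the difference of -0.02 ± 0.30 was not called (adjusted p = 0.972). SNAI2, a transcription factor of epithelial-mesenchymal transition, rose from 5.90 and 7.47 to 18.1 and 9.11 in DLD1 Mut cells (0.95 ± 0.25) and from 13.8 and 12.8 to 504 and 465 in HCT116 Mut cells (difference -4.23 ± 0.36, adjusted p = 0.00019). The rise in DLD1 Mut cells was not called without replicate 1 of either group. GEM, a small GTPase that blocks calcium channels, fell from 28.0 and 30.3 to 15.7 and 11.5 in DLD1 Mut and rose from 10.7 and 12.1 to 88.2 and 90.4 in HCT116 Mut cells (difference -4.09 ± 0.20, adjusted p = 1.58e-05). In the mitosis list the difference was called for 12 genes, each lower in DLD1 Mut cells, and 6 of 28 fell and 9 rose in HCT116 Mut cells. The difference was called for 7 or 8 of them without any 1 of the 4 DLD1 Mut arrays. ASNS fell in HCT116 Mut cells, from 287 and 317 to 186 and 183 (-0.71 ± 0.11), and the difference was 1.87 ± 0.15 (adjusted p = 0.00012).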

How the data were processed

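Total RNA was labelled by the Affymetrix whole-transcript protocol, per the labels' protocols. The authors deposited 1 intensity for each probe set and array, on a linear scale; how it was background-corrected, summarised and normalised is not given in the sources used here. Array medians lay between 3.57 and 3.70. Here log2 was taken without an offset, each gene was read by its brightest probe set with 1 symbol, and the upper 70% of genes by mean log2 level were tested, 15676 genes. Group means of all 16 arrays were fitted by limma's lmFit and eBayes (version 3.58.1, R 4.3.3; 8 residual degrees of freedom), with Benjamini-Hochberg adjustment over all tested genes and calls at 0.05. The procedure was tested on simulated data.

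The members and the 52 gene lists were chosen with earlier results of these data known, and no list was tested as a set. Named genes were the 20 largest called changes each way, up to 6 called members of a list with the smallest adjusted p in its main direction and up to 2 in the other, the 10 largest differences between responses each way, and 10 genes of interest such as GLUL; the text gives a part of these. Promoter sequences came from RefSeq (GRCh38.p14). The number of arrays limits the precision, and intensities carry no depth. Same-numbered replicates did not deviate together (correlation 0.0204 in DLD1 Mut cells), so the numbers were not taken to pair the arrays.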

Additional observations from a re-analysis of the deposited data

Results flagged for a closer look

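The response to withdrawal differed between the DLD1 derivatives, by limma's test of the difference, in 9 genes whose difference the report gives. On the log2 scale, DLD1 Mut minus DLD1 WT cells, it was -2.40 for DDIT4, -1.94 for CHAC1, -1.30 for PHGDH and -1.12 for ASNS, which rose less in DLD1 Mut cells. It was 3.10 for TMPRSS11F, 2.13 for NRIP1, 1.78 for CYP1A1 and 0.80 for PTPN14. Of these, TMPRSS11F was not called in DLD1 WT cells, and the others had a larger log2 rise in DLD1 Mut cells. With glutamine NRIP1 lay near the array median in DLD1 Mut cells and far above it in DLD1 WT cells. With an offset of 16 before log2 the difference was 0.54 for NRIP1 and 0.96 for TMPRSS11F. For PTGS2, which fell in DLD1 WT cells, the difference without an offset was 1.98. In DLD1 Mut cells PTGS2 with glutamine lay below the array median, where a fall could not be seen.

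The response differed between DLD1 Mut and HCT116 Mut cells in 5 genes whose difference the report gives. It was -4.29 for SLAMF6 and -2.92 for KIT, which fell in DLD1 Mut cells and lay near or below the array median in HCT116 Mut cells with and without glutamine, where a fall could not be seen, -4.23 for SNAI2, which rose further in HCT116 Mut cells, -4.09 for GEM, which fell in the former and rose in the latter, and 1.87 for ASNS, which did the opposite.

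Probe sets with no gene symbol or with several were left out of the comparisons of genes. Of the 13229 of them that passed the same filter 8.02% were called in DLD1 Mut cells, 505 higher and 556 lower without glutamine, a smaller share than the 33.6% among named genes.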

How the results depend on the processing

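The number of genes called in DLD1 Mut cells was 5268 in the report. It was 1281 when at least a 2-fold change was also asked, lay between 3996 and 4105 with 1 array left out, and stayed within 1.5 times of 5268 under every other setting tried. The count for the difference from DLD1 WT cells, 129, moved most. It was 46 with no filter on dim genes, 328 with genes above the median of mean level, 691 with an offset of 16 before log2, 602 with trend and robust moderation, 3 with the DLD1 arrays fitted separately, 63 with at least a 2-fold difference and 15 to 36 with 1 array left out, and the cause was not tested. The count for the difference from HCT116 Mut cells, 1919, was 703 with at least a 2-fold difference and 1169 to 1417 with 1 array left out. With the replicate number as a block the counts were 5148, 76 and 1774; no gene named in the report changed its call in DLD1 Mut cells under this block. Among the named genes no called change reversed its direction under any setting, and the calls of LGR5, MYC, TEAD4, DBP, SNAI2, BBC3 and VIL1 were lost under at least 1. No detection call was available, so the level at which a probe set stops measuring is unknown.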
